A study of Danio rerio with 12 samples.

Results

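The heart muscle contractile genes followed here encode the force-making filaments of the embryonic heart. The list named 5 genes, the light chain genes cmlc1 and myl7, the heavy chain genes myh7 and myh6, and the troponin gene tnnt2a. Members were the probe sets whose only gene symbol in the platform annotation is one of these names, which gave 4 probe sets, 1 each for cmlc1, myl7, myh7 and tnnt2a, of 15502 tested on the array. No probe set carried myh6 as its only symbol, so myh6 was not analysed here. Whole zebrafish embryos had been injected at the 1 to 2 cell stage, and total RNA was hybridised to Affymetrix zebrafish genome arrays. The groups were embryos given morpholinos against pbx2 and pbx4, called morphants here, at 10 somites (3 arrays), and control embryos at 10 somites (3 arrays), then morphants at 18 somites (3 arrays) and control embryos at 18 somites (3 arrays). Control embryos also received a morpholino, for which the labels add the words pbx2 mutant in brackets without saying what they qualify. The labels do not state the strain, the number of embryos per sample or whether numbered replicates are separate clutches, so p-values reflect only how these samples vary, and that variation may be technical.

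Muscle contracts when myosin heads pull on actin filaments. Each myosin holds heavy chains, which carry the motor, and light chains, which stiffen and tune it. Troponin sits on the actin filament and makes contraction depend on calcium. In zebrafish, cells on both sides of the embryo begin to make these proteins during segmentation, move to the midline and fuse into the heart tube. Pbx proteins are homeodomain transcription factors that bind DNA with Hox and other partners, and morpholinos are synthetic antisense strands used to stop a chosen transcript from being translated or spliced.

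Values are log2 signals per probe set, so a difference of 1 is a doubling. Among the targeted genes, pbx2 averaged 10.29 ± 0.04 in morphants and 8.54 ± 0.19 in controls at 10 somites, and 9.77 ± 0.22 and 8.14 ± 0.13 in the same order at 18 somites (SD, n = 3). It was higher in morphants by 3.36-fold at 10 somites and 3.09-fold at 18 somites, the highest fold change of all probe sets at both stages. The transcript of pbx4 was 0.45 ± 0.09 higher in morphants at 10 somites and 0.34 ± 0.09 higher at 18 somites (SE). Morpholinos act on protein production or splicing and can leave transcript amounts as they are, so neither transcript tells how well the knockdown worked. Arrays within a group correlated between 0.995 and 0.998 over probe sets. The control probe sets for the 3′ and 5′ ends of an acta1 transcript, a muscle actin, differed by 3.06 to 3.15 on morphant arrays and by 2.53 to 2.67 on control arrays at 10 somites. At 18 somites that difference was 2.97 to 3.25 on morphant arrays and 2.40 to 2.54 on control arrays, so the groups did not overlap at either stage. For GAPDH, a glycolytic enzyme, the ranges of the groups overlapped at both stages. The part of this 3′ to 5′ difference in the results below was not tested.

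**Figure D1:**
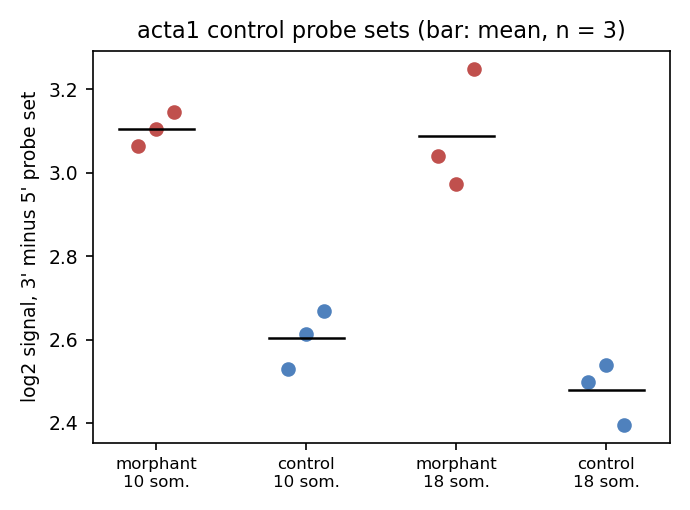
Log2 signal of the 3′ control probe set minus that of the 5′ control probe set of acta1 on each of 12 arrays (points) with group means (bars, n = 3), on an axis that does not start at 0. At 18 somites the morphant arrays lie at 2.97 to 3.25 and the control arrays at 2.40 to 2.54, without overlap.

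Signal was set against 17 AFFX-r2-Tag control probe sets, which match tag sequences that embryos do not carry. Their group means ran from 4.26 to 6.56 in morphants and 4.18 to 6.54 in controls at 10 somites, and from 3.63 to 5.79 in morphants and 3.62 to 5.78 in controls at 18 somites. At 10 somites the mean of each of the 4 members lay within that range in both groups. At 18 somites 2 of the 4, myl7 and tnnt2a, stood above it in morphants, and all 4 did in controls. Of 13 measured heart muscle markers, members included, 7 stood above the range in morphants and 9 in controls at 18 somites. The members cmlc1 and myh7 alone made that difference. Of the markers that are not members, actc1a, gata4, gata5, gata6 and hand2 stood above the range in both groups. The gata4 mean in controls, 5.790, was only just above the highest tag mean of 5.780. The genes tnnc1a, tbx5a and tbx20 were above the range in neither group. Nor was the defining cardiac homeobox gene nkx2.5, at 3.49 in morphants and 3.39 in controls.

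**Figure D2:**
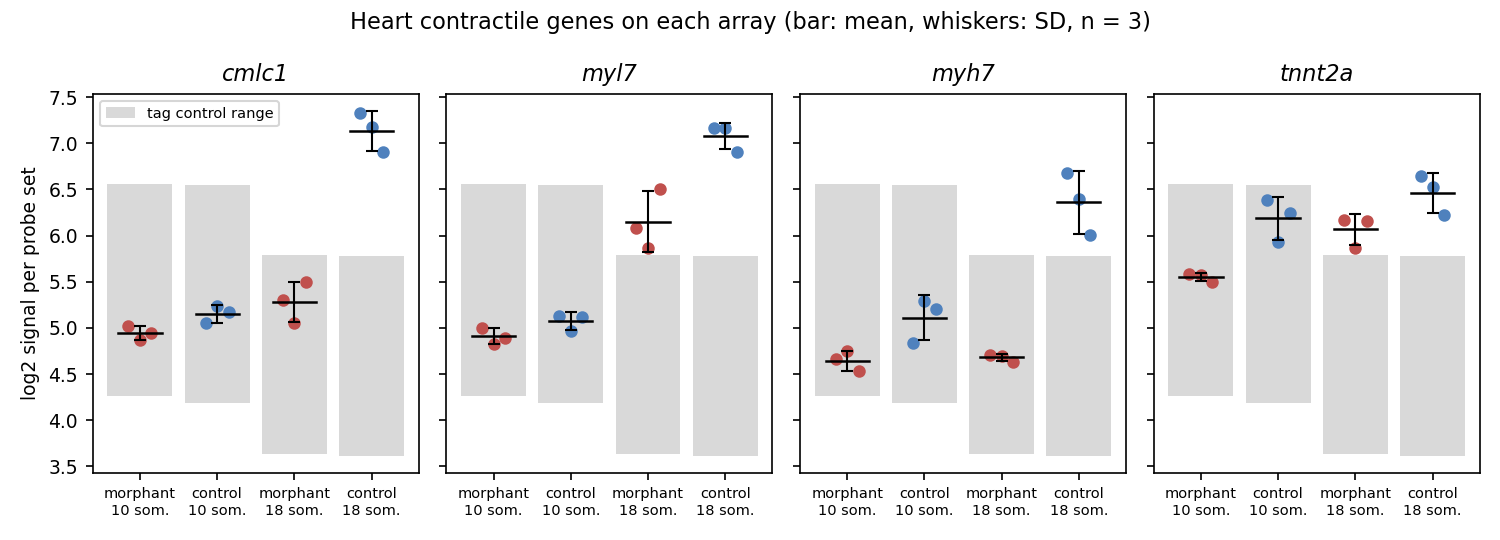
Log2 signal of cmlc1, myl7, myh7 and tnnt2a on each of 12 arrays (points), with group means and SD (bars and whiskers, n = 3) and the range of the group means of 17 tag control probe sets (grey). At 18 somites cmlc1 and myh7 lie within the grey range in morphants and above it in controls, while myl7 and tnnt2a lie above it in both groups.

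At 18 somites 3 of the 4 members fell in morphants, both light chain genes and the heavy chain gene, by 1.90-fold to 3.62-fold. Over the whole array 5.37% of probe sets were called lower at this stage. The median over the members was -1.30 and over all probe sets it was 0.001. The members were chosen with earlier results of these data known, so the values over all probe sets are context and not a test. A probe set was called at a limma adjusted p under 0.05, with Benjamini-Hochberg adjustment over all 15502 probe sets. In whole embryos fewer heart muscle cells and less transcript per cell cannot be told apart.

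The gene cmlc1 encodes a cardiac myosin light chain. Its probe set read 5.30, 5.05 and 5.49 on the morphant arrays at 18 somites, against 7.33, 7.17 and 6.90 on the control arrays. The highest morphant array lay well under the lowest control array. The difference was -1.85 ± 0.12 (SE, n = 3 per group, limma adjusted p = 5.32e-07), with a 95% interval of -2.10 to -1.61. Only 2 of 15502 probe sets had a lower fold change at this stage. The control mean stood 1.36 above the highest tag mean, whereas the morphant mean of 5.28 was inside the tag range, where background can hide part of the fall.

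The second light chain gene, myl7, encodes the regulatory light chain of heart myosin and is the usual zebrafish reporter of heart muscle cells. It read 6.085, 5.86 and 6.51 in morphants and 7.16, 7.16 and 6.91 in controls at 18 somites. The groups did not overlap, and the array labelled morphant replicate 3 came closest to the controls. The difference was -0.93 ± 0.13 (limma adjusted p = 0.000486, 95% interval -1.20 to -0.65). All 3 morphant arrays stood above the highest tag probe set of their own array.

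The heavy chain gene myh7 encodes the ventricular motor protein. Its probe set read 4.71, 4.69 and 4.64 in morphants at 18 somites, against 6.68, 6.395 and 6.00 in controls. The morphant arrays lay close together (SD 0.0392) and the control arrays apart (SD 0.34), with no overlap. The difference was -1.68 ± 0.14 (limma adjusted p = 1.12e-05, 95% interval -1.99 to -1.37), the fourth lowest of all probe sets. The morphant mean of 4.68 lay in the middle of the tag range. A further probe set, annotated to both myh7 and the related gene myh7l, was left out by the rule on single symbols. It read 3.58 to 3.68 in morphants and 3.67 to 3.83 in controls at 18 somites, at the lower end of the tag range, with a difference of -0.12 ± 0.08 (limma adjusted p = 0.38).

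The troponin T gene tnnt2a encodes the subunit that anchors troponin to tropomyosin on the thin filament. At 18 somites it read 6.17, 5.87 and 6.16 in morphants, against 6.64, 6.53 and 6.22 in controls. The groups did not overlap, with a gap of a few hundredths between the nearest arrays. The difference was -0.40 ± 0.12 and did not pass the test (limma adjusted p = 0.0514, 95% interval -0.66 to -0.13). It passed with a replicate block, which pairs arrays of the same number within a stage (adjusted p = 0.0238), and when control replicate 3 at 18 somites was left out (-0.52, adjusted p = 0.021). Leaving out control replicate 1 (0.0405) or 2 (0.033) at 10 somites had the same outcome through the shared estimate of the spread. Over the alternatives run, the limma adjusted p of tnnt2a at 18 somites reached 0.193.

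At 10 somites the troponin gene alone was called: 1 of the 4 members fell, against 3.85% of all probe sets called lower. On the morphant arrays tnnt2a read 5.58, 5.57 and 5.50, and on the control arrays 6.39, 5.93 and 6.24. All 3 morphant arrays lay under the lowest control array. The difference was -0.64 ± 0.12 (limma adjusted p = 0.00625, 95% interval -0.90 to -0.37). Both group means, 5.55 in morphants and 6.19 in controls, lay within the range of the 17 tag probe sets. The tag probe sets themselves differed between morphants and controls by -0.21 to 0.11. With the 8 tag probe sets A to H alone, whose control range ended at 6.13, the control mean stood above the range. The fall was -0.55 and not called (adjusted p = 0.082) in a fit without the 4 arrays numbered 1, an alternative added after the data were seen. That fit called 333 of all probe sets at 10 somites, against 1267 in the main fit.

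The ventricular heavy chain gene myh7 read 4.66, 4.75 and 4.53 in morphants and 4.84, 5.29 and 5.20 in controls at 10 somites. The groups did not overlap. The difference of -0.47 ± 0.14 did not pass the test (limma adjusted p = 0.0631) and passed with the replicate block (adjusted p = 0.0158). It also passed when control replicate 1 at 10 somites was left out (-0.60, adjusted p = 0.0292). Because all arrays share 1 estimate of the spread, leaving out control replicate 1 (0.0331) or 3 (0.0234) at 18 somites had the same outcome. Over the alternatives run, the limma adjusted p of myh7 at 10 somites reached 0.223.

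Neither light chain gene was called at 10 somites. For cmlc1 the arrays read 5.02, 4.87 and 4.95 in morphants and 5.05, 5.24 and 5.17 in controls, a difference of -0.21 ± 0.12 (limma adjusted p = 0.313, 95% interval -0.46 to 0.04). For myl7 they read 5.002, 4.83 and 4.89 in morphants and 5.13, 4.96 and 5.12 in controls, a difference of -0.16 ± 0.13 (limma adjusted p = 0.512, 95% interval -0.44 to 0.11). The cmlc1 arrays did not overlap between the groups, with the highest morphant array at 5.02 and the lowest control array at 5.05. The myl7 arrays overlapped, although the morphant array was the lower in each of the 3 same-numbered pairs. Both differences lay close to or inside the spread of the tag probe sets. With signals in that range, a fall at 10 somites may not be detectable.

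**Figure D3:**
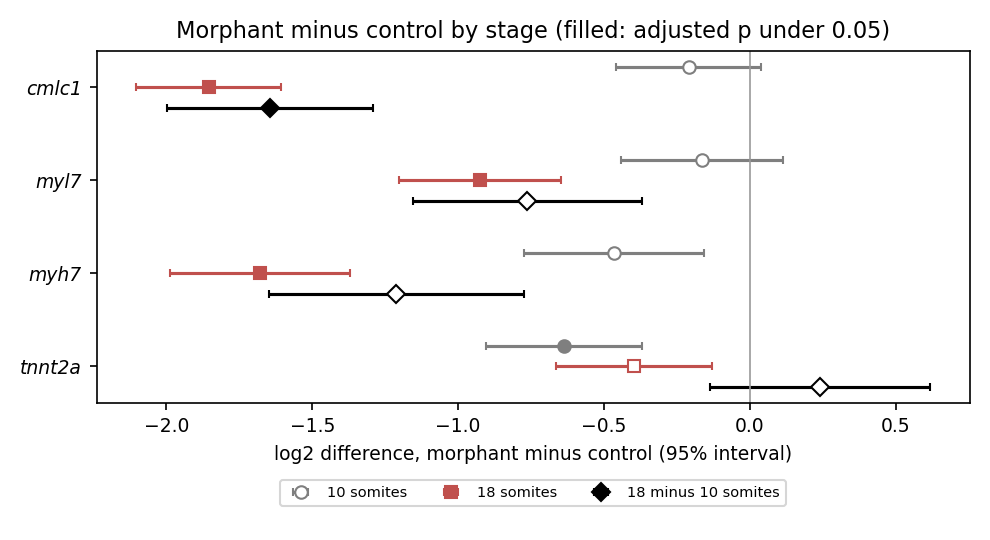
Difference in log2 signal between morphant and control embryos for each gene at 10 somites (circles), at 18 somites (squares) and the later difference minus the earlier one (diamonds), with 95% intervals of the model; filled marks passed the test. The light and heavy chain genes lie further from 0 at 18 somites, and tnnt2a does not.

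Whether the effect itself differed between the stages was tested as the difference at 18 somites minus that at 10 somites. It passed for 1 of the 4 members, cmlc1, at -1.64 ± 0.16 (limma adjusted p = 0.00136, 95% interval -1.996 to -1.29), the lowest of all probe sets. Without the 4 arrays numbered 1 it was -1.47 and not called (adjusted p = 0.257), in a fit that called 0 of all probe sets. In the main fit 0.0258% of probe sets over the array were called lower in this test. For myh7 it was -1.21 ± 0.20 (limma adjusted p = 0.0538) and passed with the replicate block (0.0103), after median centring of each array (0.0396) and on leaving out control replicate 3 at 18 somites (0.0123). For myl7 it was -0.76 ± 0.18 (limma adjusted p = 0.205), and it passed on leaving out morphant replicate 3 at 18 somites (-0.94, adjusted p = 0.0415). For tnnt2a it was 0.24 ± 0.18 (limma adjusted p = 0.794, 95% interval -0.14 to 0.62), so these data do not settle whether its effect changed. Signals within the tag range at 10 somites can compress the earlier difference and so enlarge this one, which was not tested.

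The same 4 probe sets were followed from 10 to 18 somites within each kind of embryo. The deposited arrays of the 2 stages have different medians, between 7.29 and 7.31 at 10 somites and between 6.52 and 6.57 at 18 somites, so each array was first centred on its median. All 4 members rose in morphants, where 24.9% of probe sets rose, and all 4 rose in controls, where 24.4% did. The tag probe sets changed by a median of 0.12 in morphants and 0.11 in controls on this scale.

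The light chain gene cmlc1 rose by 1.09 ± 0.11 in morphants and 2.75 ± 0.11 in controls, and myl7 by 1.99 ± 0.12 and 2.77 ± 0.12 in that order (SE). In controls these were the 14th and 13th highest changes of all probe sets. The deposited morphant means of cmlc1, 4.94 at 10 somites and 5.28 at 18 somites, both lay within the tag range. The heavy chain gene myh7 rose by 0.78 ± 0.14 in morphants and 2.01 ± 0.14 in controls. On the deposited scale without centring, myh7 averaged 4.68 at 18 somites and 4.645 at 10 somites in morphants, a change of 0.035 (limma adjusted p = 0.815), within the tag range at both stages. The troponin gene tnnt2a rose by 1.26 ± 0.12 in morphants and 1.04 ± 0.12 in controls. Without centring its change was 0.517 in morphants and 0.277 in controls (limma adjusted p = 0.0449 in controls), and that of cmlc1 was 0.338 in morphants and 1.98 in controls. The uncentred changes of myl7 were 1.24 in morphants and 2.005 in controls, and myh7 changed by 1.25 in controls. Without centring 14773 of all probe sets were called in morphants and 14805 in controls, against 8281 and 7892 after centring. The uncentred p-values therefore do not separate a gene's own change from the difference between the stage medians. Each of the rises after centring had a limma adjusted p of 0.000485 or less.

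**Figure D4:**
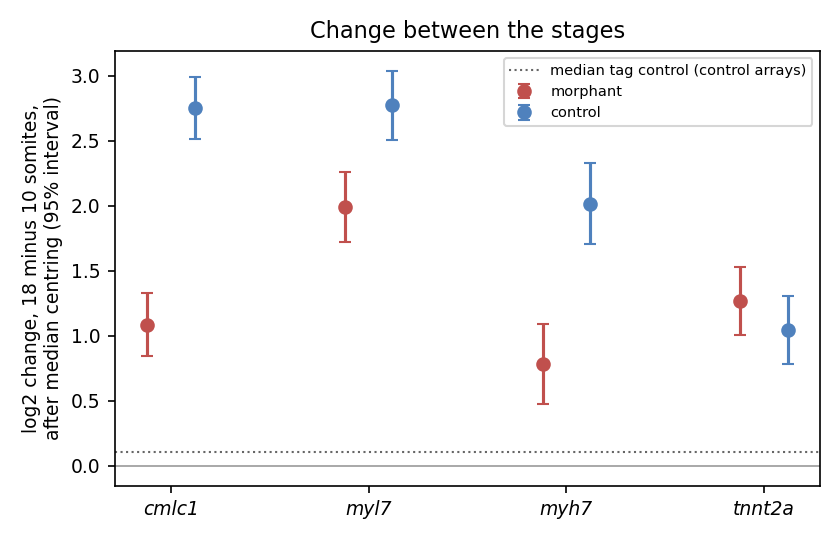
Change in median-centred log2 signal from 10 to 18 somites in morphant embryos (left of each pair) and control embryos (right), with 95% intervals of the model; the dotted line is the median change of 17 tag control probe sets on control arrays. The rise of cmlc1 is 1.09 in morphants and 2.75 in controls, and that of tnnt2a is 1.26 and 1.04.

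Other genes of the heart and of neighbouring tissues were described from lists chosen with earlier results of these data known, with 1 probe set per gene. Among other heart sarcomere genes 16 were measured, and at 18 somites 2 fell and none rose, at a median of -0.15, against 5.37% of all probe sets called lower and 7.11% higher. At an unadjusted p under 0.05, 6 of the 16 were lower and 0 higher. The giant spring protein gene ttn.2 fell by 0.89 ± 0.15 (limma adjusted p = 0.00175). A second probe set of ttn.2 gave -0.91, while another pair gave -0.11 and -0.05 and did not pass. The calcium sensor gene tnnc1a, cardiac troponin C, fell by 0.55 ± 0.07, with means of 3.57 in morphants and 4.12 in controls, neither above the tag range. The cardiac actin gene actc1a, chosen after its value was seen, was at 0.04 ± 0.06 (limma adjusted p = 0.738). In controls at 10 somites actc1a averaged 13.01 and ttn.2 8.49, above the tag range, while the members lay within it. In whole embryos the parts of heart and skeletal muscle in the signals of this list were not tested.

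At 10 somites 1 of the 16 fell, ttn.2 at -0.59 ± 0.15, and 1 rose, unc45b, a myosin chaperone, at 0.45 ± 0.11, against 3.85% lower and 4.32% higher over the array. Of the other ttn.2 probe sets, 1 gave -0.61 (limma adjusted p = 0.00452) and the rest gave -0.014 (0.967) and -0.032 (0.817). The unc45b call and the ttn.2 call were lost when control replicate 1 or 2 or morphant replicate 2 or 3 of that stage was left out, with limma adjusted p between 0.0593 and 0.103. These fits called 643 to 773 of all probe sets, against 1267 in the main fit. The unc45b call was also lost with only the 6 arrays compared (0.0737) and without the 4 arrays numbered 1 (0.0893). That last fit called 333 of all probe sets. Of 9 heart excitation genes 1 fell at 18 somites, the calcium pump gene atp2a2a at -0.45 ± 0.08 (limma adjusted p = 0.00192), and none rose, against 5.37% of all probe sets called lower and 7.11% higher. At an unadjusted p under 0.05, 2 were lower and 1 higher, and with the replicate block 2 fell and 1 rose. The block called 2809 of all probe sets at 18 somites, against 1935 in the main fit. A second probe set of atp2a2a gave 0.09 (adjusted p = 0.514). The atp2a2a call was lost without the 4 arrays numbered 1 (0.0542), a fit that called 677 of all probe sets. At 10 somites none of the 9 was called, against 3.85% of all probe sets called lower and 4.32% higher. Of the 9, 2 were lower and 0 higher at an unadjusted p under 0.05.

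Among heart field regulators more genes were called higher than lower at 18 somites, though most were not called. Of 27 measured transcription factors and signals, 7 rose and 1 fell, at a median of 0.10, against 7.11% of all probe sets called higher and 5.37% lower. The highest were hand2, a factor needed for heart muscle formation in zebrafish, at 0.77 ± 0.07 (limma adjusted p = 1.80e-05), the LIM homeobox gene isl2a at 0.53 ± 0.08 and the forkhead gene foxc1b at 0.39 ± 0.10. The other 4, named after their values were seen, were the homeobox gene nkx2.7, the zinc finger gene gata5, tbx3a and foxc1a, between 0.34 and 0.36. The Iroquois homeobox gene irx3a fell by 0.33 ± 0.08. At an unadjusted p under 0.05, 9 of the 27 were higher and 4 lower. Of the regulators among the heart muscle markers, hand2 and gata5 rose. The others were not called: gata6 at 0.20, gata4 at 0.13, nkx2.5 at 0.10, tbx20 at 0.04 and tbx5a at -0.28 (limma adjusted p = 0.0627). The means of nkx2.5, tbx20 and tbx5a stood above the tag range in neither group, so a change in them may not be detectable. In whole embryos the part of tissues other than the heart in these signals was not tested. The number that rose was 3 when control replicate 1 or 2 or morphant replicate 3 was left out, and 4 when morphant replicate 2 was. The foxc1b call was lost on leaving out any of these 4 arrays (limma adjusted p between 0.0538 and 0.068). The irx3a call was lost on leaving out morphant replicate 3 (0.0522). Fits without 1 array called 1213 to 1987 of all probe sets at 18 somites, against 1935 in the main fit. With the replicate block 9 of the 27 rose and 2 fell, where 2809 of all probe sets were called. After median centring 6 rose and 3 fell, and after quantile normalization 7 rose and 3 fell. Over all probe sets centring gave 905 higher and 1008 lower, against 1102 higher and 833 lower as deposited.

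At 10 somites 2 of the 27 regulators rose and 4 fell, against 4.32% of all probe sets called higher and 3.85% lower. The genes that rose were hand2 at 0.42 ± 0.07 and gata5 at 0.28 ± 0.08. The lowest were irx3a at -0.54 ± 0.08 and the Notch target genes hey1 and hey2 at -0.35 ± 0.08 and -0.34 ± 0.07. The Iroquois gene irx1a, named after its value was seen, fell by 0.29 ± 0.08. At an unadjusted p under 0.05 the lean was the other way, with 7 of the 27 higher and 4 lower. The gata5 call was lost without any 1 of the 6 arrays of that stage (limma adjusted p between 0.0652 and 0.155), and also after quantile normalization (0.0554). Without the 4 arrays numbered 1 hand2 was not called (0.0649) and 0 regulators rose and 2 fell, whereas with the replicate block 4 rose. Over all probe sets these fits called 333 and 2040 in that order, against 1267 in the main fit. The hey1 call was lost on leaving out control replicate 1 or morphant replicate 2 or 3 of that stage (0.0648 to 0.0718). Fits without 1 array called 643 to 1447 of all probe sets at 10 somites.

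**Figure D5:**
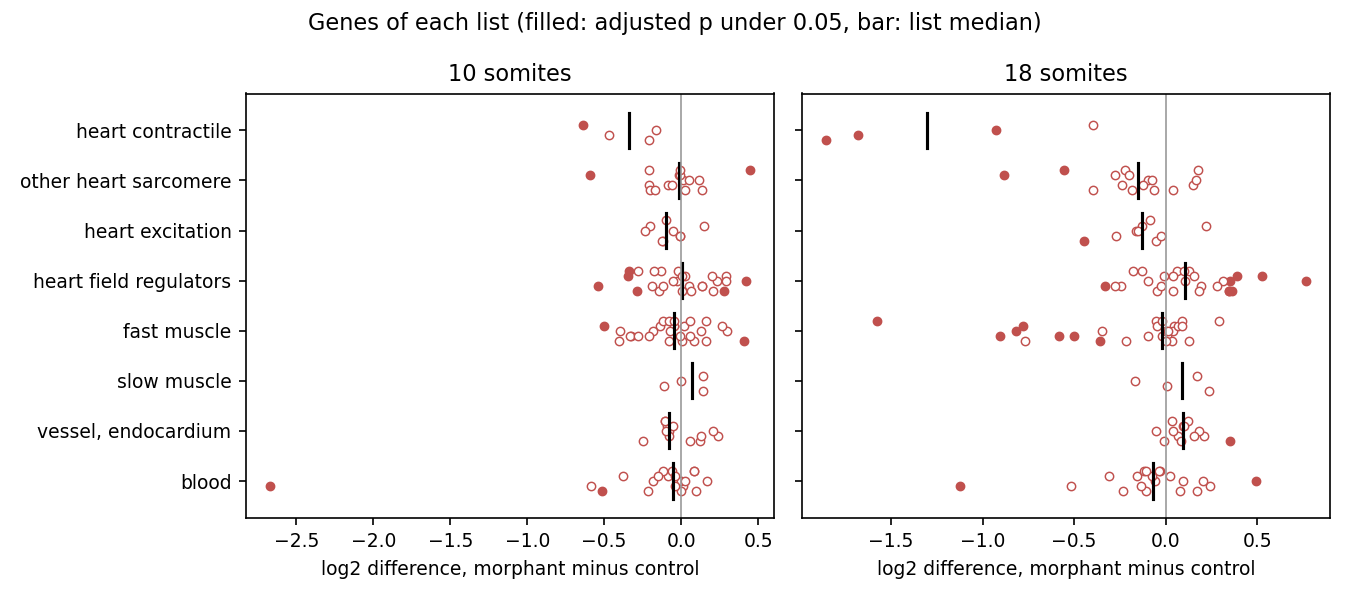
Difference in log2 signal between morphant and control embryos at 10 and 18 somites for the heart contractile genes and for the genes of 7 other lists (points; filled points passed the test), with the median of each list (line). At 18 somites cmlc1 and myh7 lie lower than the other heart sarcomere genes.

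Markers of skeletal muscle, which make related sarcomere proteins in the same embryos, were read beside the members. Of 27 fast muscle genes 7 fell at 18 somites and none rose, against 5.37% of all probe sets called lower and 7.11% higher. At an unadjusted p under 0.05, 8 were lower and 0 higher, and the median was -0.021. The myosin gene myhz1.3 fell by 1.58 ± 0.29, the light chain gene mylpfa by 0.905 ± 0.22 and the calcium pump gene atp2a1 by 0.815 ± 0.19. A second probe set of mylpfa gave -1.06 in the main fit (limma adjusted p = 0.0133). The count of fast muscle genes that fell was 4 when control replicate 1 at 18 somites was left out. There mylpfa (limma adjusted p = 0.0679) and atp2a1 (0.0584) were no longer called. That fit called 1213 of all probe sets, against 1935 in the main fit. The mylpfa call was also lost with only the 6 arrays compared (0.0537), with the trend and robust prior (0.0558) and without the 4 arrays numbered 1 (0.127). In that last fit, which also called 4 fast muscle genes lower, myhz1.3 was not called either (0.0507). Over all probe sets it called 677. The mean signal over the 27 genes ran from 6.93 to 7.31 on morphant arrays and from 7.35 to 7.46 on control arrays at that stage. Their part in the fall of the members was not tested.

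At 10 somites 1 of the 27 fell, srl at -0.50, and 1 rose, tnnt3b at 0.41, both named after their values were seen, near the 3.85% and 4.32% of all probe sets called lower and higher. The tnnt3b call was lost on leaving out morphant replicate 2 of that stage (0.0574), in a fit that called 719 of all probe sets, against 1267 in the main fit. With the replicate block 3 fell and 2 rose, in a fit that called 2040 of all probe sets at 10 somites. Of 4 slow muscle genes none was called at either stage. Over the array 5.37% of probe sets were called lower and 7.11% higher at 18 somites, and 3.85% and 4.32% at 10 somites. A list of 4 genes is too short to set against these shares. At an unadjusted p under 0.05, 1 slow muscle gene was lower and 2 were higher at 18 somites, and at 10 somites 0 were. With the replicate block 1 slow muscle gene rose at 18 somites, where that fit called 2809 of all probe sets, against 1935 in the main fit.

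Of 13 vessel and endocardium genes 1 rose at 18 somites, the apelin receptor gene aplnra at 0.35 ± 0.08, and none fell, with 7.11% of all probe sets called higher. The aplnra call was lost without the 4 arrays numbered 1 (limma adjusted p = 0.0572), a fit that called 677 of all probe sets. At 10 somites none of the 13 was called, against 3.85% of all probe sets called lower and 4.32% higher. At an unadjusted p under 0.05, 1 was lower and 2 were higher. Of 20 blood genes, which share the lateral mesoderm with the heart field, 1 fell and 1 rose at 18 somites, the leukocyte gene lcp1 at -1.12 ± 0.18 and the myeloid factor gene spi1b at 0.49 ± 0.09. Both counts are close to the shares over the array, 5.37% lower and 7.11% higher. With the replicate block 2 fell and 2 rose, in a fit that called 2809 of all probe sets, against 1935 in the main fit. A second probe set of spi1b gave 0.76 at 18 somites in the main fit (limma adjusted p = 0.00358). At 10 somites 2 of the 20 blood genes fell and none rose, against 3.85% of all probe sets called lower and 4.32% higher. They were lcp1 at -2.67 ± 0.18 and gata1a, an erythroid factor gene, at -0.52 ± 0.15. The limma adjusted p of gata1a was 0.0492. The gata1a call was lost on leaving out any of 7 arrays (0.0614 to 0.19), among them every 10 somite array but morphant replicate 1. Fits without 1 array called 643 to 1447 of all probe sets at 10 somites, against 1267 in the main fit.

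The genes whose pattern was most like that of the 3 members called at 18 somites were picked by Pearson's r over 12 arrays to their mean, after each stage mean was subtracted. They were snap25a (r = 0.984), a synaptic fusion protein gene, prrx1b (0.981), a mesenchymal homeobox gene, dnttip2 (0.961), slc18a3a (0.956), a vesicular acetylcholine transporter gene, and exosc6 (0.953), an RNA exosome subunit gene. The arrays share stage and group, so these r values are a description. At 18 somites snap25a read 5.09, 5.004 and 5.19 in morphants and 5.78, 5.61 and 5.57 in controls, within the tag range in both groups. The 18 somite differences of the 5 genes ran from -0.56 to -0.19, smaller than those of the members they resemble. None of the 5 was called at 10 somites.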

How the data were processed

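Per the submitters' processing notes, the authors normalized the arrays with RMA in the affy package, versions not given, and deposited log2 values per probe set. The sources used here do not say whether both stages were normalized in 1 run, and stage medians differ. Of 15617 probe sets, 115 AFFX controls were left out. Of the rest, 10795 had 1 gene symbol in the platform annotation, 135 several and 4572 none, and 1 symbol was updated through a RefSeq table of assembly GRCz12tu.

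All 12 arrays in 4 groups entered 1 limma 3.58.1 fit (R 4.3.3) with 8 residual and 6.062 prior degrees of freedom, checked on simulated data. P-values were adjusted by Benjamini-Hochberg over 15502 probe sets and called at 0.05. The number of arrays limits the precision. Stage changes used median-centred values. A gene with several probe sets was counted in a list by the one with the highest mean.

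Same-numbered arrays deviated together: correlations of deviations from group means were 0.548, 0.214 and 0.246 at 10 somites and 0.408, 0.301 and 0.325 at 18 somites. Pairs of unlike number ran from -0.427 to 0.231 at 10 somites and from -0.289 to -0.087 at 18 somites. Deviations from a group mean cancel over its arrays, so the unlike pairs are not independent of the same-numbered ones. At 10 somites morphant 2 with control 3, at 0.231, lay above the same-numbered pair 2, so pairing is less clear at that stage. The fit itself has no pairing term, and a fit with the number as a block within each stage is given beside each member result whose call it changes. The block also moved list counts, some of them not given above. At 18 somites 3 other heart sarcomere genes fell (2 in the main fit), 9 regulators rose (7) and 8 fast muscle genes fell (7). At 10 somites 3 blood genes fell (2). Over all probe sets 2040 were called at 10 somites (1267) and 2809 at 18 somites (1935). Alternatives were the replicate block, only 6 arrays, centring, quantile normalization, array weights, a trend and robust prior, a filter to the highest 60% of signals, and leaving out each array.

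The members and lists were chosen with earlier results of these data known. Named were all members, pbx2 and pbx4, the 3 lowest and 3 highest called genes of each list at 18 somites (for the other heart lists also at 10 somites), and the 5 genes most like the members.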

Additional observations from a re-analysis of the deposited data

Results flagged for a closer look

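The measured morphant minus control difference of cmlc1 changed between the stages, at -1.64 ± 0.16 (18 somites minus 10 somites, limma adjusted p = 0.00136). It was -1.85 at 18 somites and -0.21 at 10 somites, where both group means lay within the tag range. Signals in that range can compress the earlier difference, and their part in the change was not tested. Without the 4 arrays numbered 1 the change was -1.47 and not called (limma adjusted p = 0.257).

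The acta1 control probe sets, which enter no comparison of genes, gave a signal that differed between the groups. The 3′ minus 5′ difference was higher in morphants than in controls by 0.501 at 10 somites and by 0.611 at 18 somites, with no overlap of the arrays at either stage. For GAPDH the same quantity was higher in morphants by 0.021 at 10 somites and by 0.21 at 18 somites, with overlap.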

How the results depend on the processing

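Across the 224 values of the members' differences under the alternatives, 200 kept their direction and side of the threshold, 22 came to pass it, 2 no longer passed and 0 reversed. The falls of cmlc1, myh7 and myl7 at 18 somites passed under every alternative run, except the signal filter, which none of the 4 members passed and which gives no value for them. At 10 somites 2 members were called with only the 6 arrays, the replicate block or array weights, and 1 to 2 without 1 array. There myh7 was at -0.47 with 6 arrays (adjusted p = 0.0463) and with the replicate block (0.0158), at -0.55 with array weights (0.0117), at -0.61 without the 4 arrays numbered 1 (0.0427), and between -0.60 and -0.38 without 1 array. At 18 somites tnnt2a passed at -0.40 with the replicate block (0.0238), -0.42 with centring (0.0381), -0.425 with quantile normalization (0.0416) and -0.40 with the trend and robust prior (0.0424), and ran from -0.52 to -0.30 without 1 array. For the difference between the stages, 2 members were called with the replicate block, centring, quantile normalization or the trend and robust prior, 3 with array weights, 0 without the 4 arrays numbered 1, and 1 to 2 without 1 array. There myh7 passed at -1.21 with the replicate block (0.0103) and with the trend and robust prior (0.0329), -1.23 with centring (0.0396), -1.29 with quantile normalization (0.0484) and -1.16 with array weights (0.0337), and ran from -1.39 to -1.05 without 1 array. The myl7 difference passed at -0.88 with array weights (0.0375) and ran from -0.94 to -0.62 without 1 array. Without the 4 arrays numbered 1, which leaves 2 arrays a group, tnnt2a at 10 somites was -0.55 (0.082) and the cmlc1 difference -1.47 (0.257). That fit called 333 of all probe sets at 10 somites and 0 for the difference. Over all probe sets 1267 were called at 10 somites (643 to 1447 without 1 array, 333 to 2447 otherwise, 2040 with the replicate block), 1935 at 18 somites (1213 to 1987, and 677 to 2809 otherwise) and 5 for the difference (1 to 20, and 0 to 52 otherwise, 52 with the replicate block). The replicate block changed no other call of a member. The cause of these changes was not tested. Members within the tag range have signals that background can set, so the size of their falls is uncertain. The part of background in them was not tested.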
